A study of Danio rerio with 12 samples.

Results

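Complement and coagulation factors are plasma proteins that fight microbes and form clots, and their messenger RNA was followed here in zebrafish larvae exposed to perfluorooctanesulfonate (PFOS), a persistent fluorinated surfactant. The genes were taken by name: 42 names of complement and coagulation genes, plus every gene name starting with c3a. or c3b., the zebrafish copies of complement C3. Of the 42 names, 37 were found and led to 39 genes, because c6 and f10 each name a pair of genes. With 7 C3 copies this gave 46 genes of the 26873 measured. The names c4b, cfi, c7, c7b and procb matched no row as spelled and so gave no member. Both c6 genes are called c6.1 and c6.2 below, after the reference table of gene names.

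The libraries came from whole wild-type larvae at the eleutheroembryo stage, collected at 5 days post fertilization after exposure through the water from 2 to 5 days. Control larvae received the solvent alone, 0.2% DMSO, which all groups shared. The other groups received PFOS, as its potassium salt, at 0.03, 0.3 or 1 ppm. Each group had 3 libraries and each library was stranded poly-A RNA-seq of 10 pooled larvae. No label ties the replicates to separate clutches or tanks. Each p-value below therefore measures the spread between these libraries, which may be technical.

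Complement is a chain of proteases that converges on C3. The classical pathway starts from C1q, the lectin pathway works through the MASP proteases, and the alternative pathway through factors B and D. Cleaved C3 marks surfaces for uptake and leads on to C5 and to the pore built from C6, C7, C8 and C9. Coagulation is a parallel chain that ends with prothrombin and fibrinogen, is held back by antithrombin and protein C, and is undone by plasmin. Most of these proteins are secreted by hepatocytes, whereas C1q comes largely from macrophages and von Willebrand factor from endothelium and thrombocytes, the fish counterpart of platelets.

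Levels are the authors' normalised counts, deposited as whole numbers, which total 24061372 to 31907243 per library. They are not per length, so a higher count in 1 gene than in another does not give a higher transcript level. Shares of counts and ratios of 2 genes are compared between libraries only. In the controls 11 members averaged 1000 normalised counts or more, 25 between 100 and 1000, 7 between 10 and 100 and 3 fewer than 10. The 43 members that reached 10 normalised counts in 3 or more libraries were tested among 22320 genes. The untested members were c3a.5, f13b and the f10 gene ENSDARG00000099484, which was listed at 0 in 11 libraries and at 3 in 1 ppm replicate 1. The hepatocyte marker list amounted to 1.26% to 1.64% of a library's normalised counts in the controls and 1.85% to 2.21% at 1 ppm, and epidermal markers took 7.72% to 10.5% in the replicate 2 libraries against 4.51% to 7.04% in the other 8.

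The comparison of 1 ppm PFOS with the solvent control asks how these genes stand at the highest dose. Members were mostly higher at 1 ppm: 33 of 43 had a higher mean and 10 a lower one on the log2(value + 1) scale, with a median log2 change of 0.52. Over all genes tested 48.3% were higher, with a median of -0.01. The largest difference was that of cfh, complement factor H, which averaged 1416 ± 292 normalised counts at 1 ppm against 703 ± 113 in the control (SD, n = 3). No member passed a limma adjusted p of 0.05 over all genes, 0 of 43 against 0.139% of all genes tested. At an unadjusted limma p under 0.05 there were 14 members, all of them higher, where 2.14% of all genes were higher and 2.60% lower. In bulk libraries such as these, more cells of a type and more RNA per cell cannot be told apart.

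In 18 of the 43 members every 1 ppm library lay above every control library, 41.9% of the members against 4.41% of all genes tested. In none did every 1 ppm library lie below every control, against 4.33% of all genes. With libraries rescaled to equal totals the first count was 11 members, 25.6% against 3.00% of genes. The members vary together from library to library, so these counts are not counts of independent events. Hepatocyte markers were mostly higher too: 33 of 39 tested were higher at 1 ppm, with a median log2 change of 0.54, and 15 had every 1 ppm library above every control. The part of hepatocyte content in the members' difference was not tested.

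**Figure D1:**
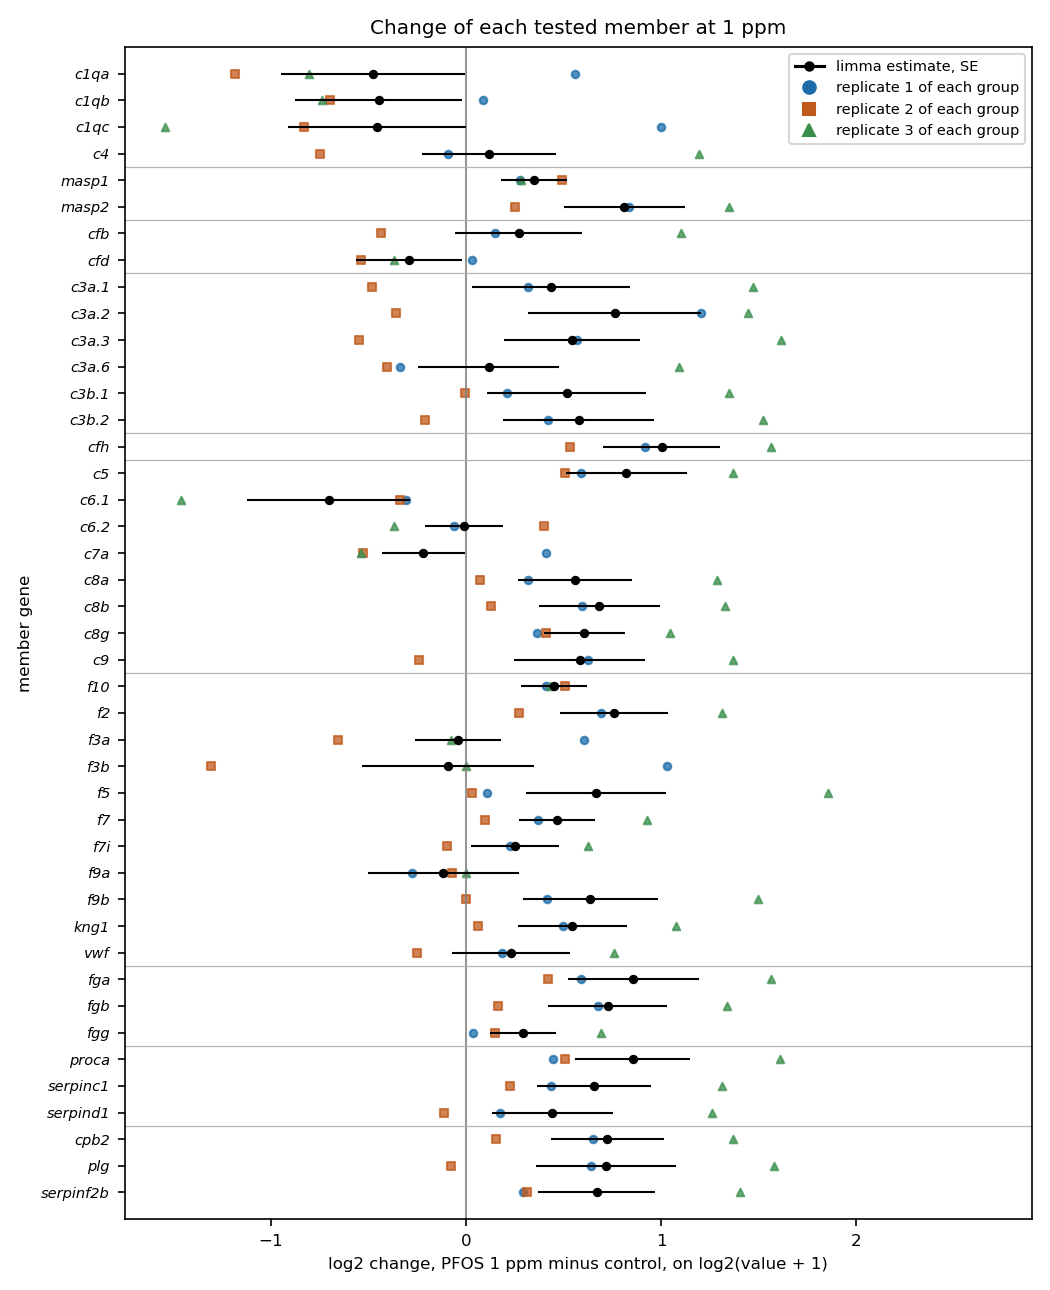
Log2 change of each tested member at 1 ppm against control (horizontal axis, log2(value + 1) scale) for 43 genes grouped by role. Black points and bars are the limma estimate and its SE, coloured points are the difference between the libraries of replicate number 1, 2 or 3. Most estimates lie right of 0, and the replicate 3 difference is usually the farthest right.

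The difference was uneven over the replicate numbers. The median member differed by 0.41 on the log2 scale between the replicate 1 libraries of 1 ppm and control, by -0.00 between the replicate 2 libraries and by 1.26 between the replicate 3 libraries. In 19 members the 1 ppm library was the higher one within all 3 numbers, against 13.5% of all genes, and c6.1 was the only member lower within all 3, against 15.1% of all genes. Without control replicate 3 the median log2 change of the members was 0.29, and without both replicate 3 libraries it was 0.17 with 30 of 43 higher. Without 1 ppm replicate 2 the count above every control was 29 members (12.7% of all genes), and without both replicate 2 libraries it was 31 (16.8% of all genes), with a median of 0.78.

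In the classical pathway C1q, the recognition molecule, is made of the chains of c1qa, c1qb and c1qc, which lie side by side in the GRCz12tu gene table, and all were low. The c1qa gene (ENSDARG00000044613) had 16, 49 and 20 normalised counts in control replicates 1, 2 and 3, and 24, 21 and 11 at 1 ppm. Values below are given in the same order of replicates. Control replicate 2 was the highest library for c1qa, c1qb and c1qc, and 1 ppm replicate 3 the lowest or tied for it, with overlapping groups. Their log2 changes at 1 ppm were -0.48, -0.45 and -0.46 (limma adjusted p = 1.00 for each). Macrophage markers stood beside them: mpeg1.1, a perforin-like gene of macrophages, had 251, 562 and 214 in the controls and 247, 303 and 170 at 1 ppm, and 16 of 19 tested macrophage markers were lower, with a median log2 change of -0.30. The part of macrophage content in the C1q values was not tested.

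C4 is cleaved by both the classical and the lectin pathway, and its gene c4 (ENSDARG00000015065) had 112, 155 and 72 normalised counts in the controls. It had 141, 79 and 104 at 0.03 ppm, 107, 61 and 112 at 0.3 ppm and 105, 92 and 166 at 1 ppm. The groups overlapped throughout, and the log2 change at 1 ppm was 0.12 ± 0.34 (SE, limma adjusted p = 1.00).

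The lectin pathway proteases were both higher at 1 ppm. MASP2 cleaves C4 and C2, and masp2 (ENSDARG00000007988) had 82, 83 and 61 normalised counts in the controls, 74, 100 and 83 at 0.03 ppm, 74, 62 and 150 at 0.3 ppm and 147, 99 and 157 at 1 ppm. Every 1 ppm library was above every control, while the 0.3 ppm group spanned both. Its log2 change at 1 ppm was 0.81 ± 0.31 (SE, limma adjusted p = 0.900). MASP1, which activates MASP2, is encoded by masp1 (ENSDARG00000068726), with 137, 125 and 115 in the controls, 129, 109 and 139 at 0.03 ppm, 173, 150 and 151 at 0.3 ppm and 166, 176 and 140 at 1 ppm. All libraries of 0.3 and 1 ppm stood above the controls and those of 0.03 ppm overlapped them. The masp1 log2 change at 1 ppm was 0.35 ± 0.17 (SE, limma adjusted p = 1.00), and its slope over the order of the 4 groups had a limma adjusted p of 0.806.

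Factor D, the protease that cleaves factor B, is encoded by cfd (ENSDARG00000039579), which made up 18.0% of the members' summed control counts. It had 3751, 8824 and 5479 normalised counts in the controls, 4817, 6104 and 4457 at 0.03 ppm, 4750, 6070 and 5127 at 0.3 ppm and 3834, 6080 and 4239 at 1 ppm. In every group replicate 2 was the highest library, and the groups overlapped. The log2 change at 1 ppm was -0.29 ± 0.27 (SE, limma adjusted p = 1.00).

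Factor B supplies the protease of the alternative C3 convertase, and cfb (ENSDARG00000055278) had 1061, 1140 and 1006 normalised counts in the controls. It had 1035, 863 and 754 at 0.03 ppm, 734, 559 and 1263 at 0.3 ppm and 1174, 842 and 2158 at 1 ppm. The dosed libraries spread far more widely than the controls, from 559 to 2158, and lay on both sides of them. The log2 change at 1 ppm was 0.27 ± 0.33 (SE, limma adjusted p = 1.00).

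Factor H restrains the C3 convertase on the body's own surfaces, so it opposes factor B. The cfh gene (ENSDARG00000100442) had 769, 767 and 572 normalised counts in the controls, 840, 953 and 1052 at 0.03 ppm, 637, 521 and 1393 at 0.3 ppm and 1452, 1108 and 1689 at 1 ppm. All libraries of 0.03 and 1 ppm were above all controls, whereas at 0.3 ppm replicate 3 was far above them and replicates 1 and 2 lay within their range or under it. At 1 ppm its mean was 2.02 times the control mean, with a log2 change of 1.00 ± 0.30 (SE, limma adjusted p = 0.627). Leaving out any library or replicate number kept the estimate between 0.72 and 1.24.

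The ratio of factor B to factor H within a library does not depend on how libraries are scaled. There were 154 ± 19.5 cfb counts per 100 cfh counts in the controls, 95.1 ± 26.1 at 0.03 ppm, 104 ± 12.5 at 0.3 ppm and 94.9 ± 28.6 at 1 ppm (SD, n = 3). The lowest control ratio was 138 and the highest ratio of the 9 dosed libraries 128, so the groups did not overlap. This pair was picked after its values were seen: among the 903 pairs of tested members, 4 had every dosed library outside the control range on 1 side, and it was 1 of them. The other 3 were c3a.6 against c9, c3a.6 against cfh, and fgg against c8g, each with the first gene the lower one in dosed libraries. The share of such pairs among other genes was not computed. The separation is therefore a description of these libraries and not evidence of a change in the ratio.

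**Figure D2:**
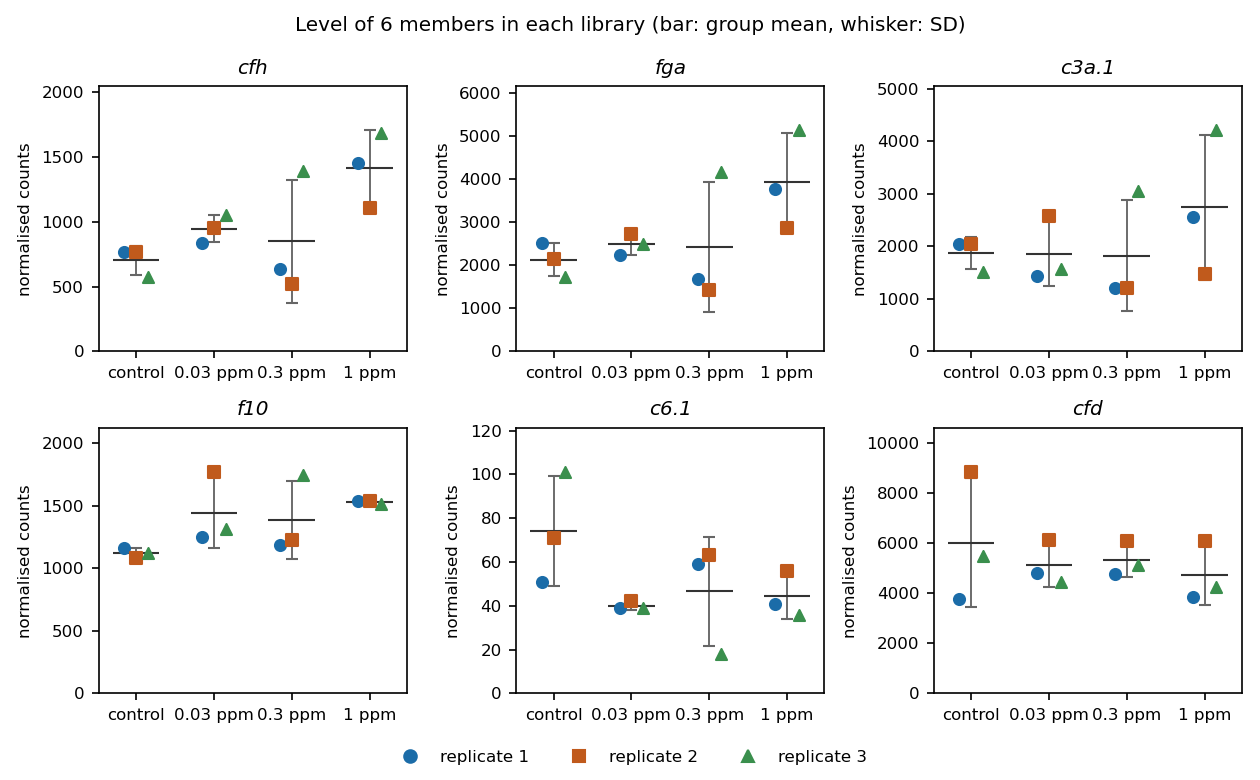
Normalised counts (vertical axes, linear from 0) of 6 members in each of the 12 libraries, by group. Points are libraries marked by replicate number, lines are group means and whiskers the SD. The 1 ppm libraries of cfh, fga and f10 lie above all controls and those of c3a.1, c6.1 and cfd overlap them. Within its group 0.3 ppm replicate 3 stands apart in cfh, fga, c3a.1, f10 and c6.1.

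C3 is the component on which the pathways meet, and zebrafish carry several copies. In the GRCz12tu gene table c3a.6, c3a.5 and c3a.1 are neighbours, as are c3a.2 and c3a.3, and c3b.1 and c3b.2. Copies this alike may share reads, so their separate values are uncertain. The copy with the most counts, c3a.1 (ENSDARG00000012694), had 2051, 2048 and 1518 normalised counts in the controls, 1437, 2577 and 1572 at 0.03 ppm, 1214, 1209 and 3048 at 0.3 ppm and 2554, 1467 and 4208 at 1 ppm. The 1 ppm group spanned the controls on both sides, with a mean of 2743 ± 1380 against 1872 ± 307 (SD, n = 3).

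All 6 tested C3 copies were higher at 1 ppm, with a median log2 change of 0.53, and all 6 were lower at 0.3 ppm, with a median of -0.26. No copy had groups that did not overlap at either dose. Within the replicate numbers the C3 median at 1 ppm was 0.37, -0.38 and 1.46. c3a.6 (ENSDARG00000043719) differed from the other copies at the lowest dose: it had 234, 292 and 224 normalised counts in the controls and 122, 213 and 131 at 0.03 ppm. Its 0.03 ppm libraries were all below the controls, as were those of 3.86% of all genes, and its log2 change there was -0.72 (limma adjusted p = 0.998). At 0.3 ppm it had 166, 152 and 307, and at 1 ppm 185, 220 and 478, so that both groups overlapped the controls.

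The terminal pathway was divided at 1 ppm, with c5, c9 and the C8 chains higher and c6.1 and c7a lower, while c6.2 stood at a log2 change of -0.01, or 0.01 with libraries rescaled to equal totals. C5 is split to open this stage, and c5 (ENSDARG00000021004) had 517, 431 and 268 normalised counts in the controls, 416, 527 and 394 at 0.03 ppm, 340, 277 and 684 at 0.3 ppm and 777, 613 and 694 at 1 ppm. Every 1 ppm library lay above every control, while at 0.3 ppm only replicate 3 did. The c5 means were 405 ± 126 in the control and 695 ± 82.0 at 1 ppm (SD, n = 3), a log2 change of 0.82 ± 0.31 (SE, limma adjusted p = 0.887).

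C8 consists of an alpha, a beta and a gamma chain. The gamma chain gene c8g (ENSDARG00000032098) had 324, 353 and 252 normalised counts in the controls, 315, 325 and 342 at 0.03 ppm, 364, 310 and 559 at 0.3 ppm and 417, 469 and 521 at 1 ppm. The 1 ppm libraries were all above the controls and those of 0.03 ppm were within their range. Its log2 change at 1 ppm was 0.61 ± 0.21 (SE, limma adjusted p = 0.851), and its slope over the 4 groups had the smallest adjusted p of any member, 0.571 in limma. The neighbouring genes c8a and c8b had log2 changes of 0.56 and 0.68, each with all 1 ppm libraries above all controls, although for c8a this did not hold with equal totals.

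C9 forms the wall of the pore. c9 (ENSDARG00000016319) had 1942, 2468 and 1792 normalised counts in the controls, 2193, 2193 and 2232 at 0.03 ppm, 1771, 1329 and 3680 at 0.3 ppm and 2996, 2085 and 4625 at 1 ppm. The 0.03 ppm libraries were close together inside the control range, and 1 ppm replicate 2 lay inside it too. The mean was 2067 ± 355 in the control and 3235 ± 1287 at 1 ppm (SD, n = 3).

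C6 joins the pore early, and both its genes were low at 0.03 ppm. c6.1 (ENSDARG00000093052) had 51, 71 and 101 normalised counts in the controls, 39, 42 and 39 at 0.03 ppm, 59, 63 and 18 at 0.3 ppm and 41, 56 and 36 at 1 ppm. The 0.03 ppm libraries were all below the controls and nearly equal, and the other doses overlapped the controls. c6.2 (ENSDARG00000057113) had 256, 297 and 336 in the controls, 211, 223 and 215 at 0.03 ppm, 256, 291 and 210 at 0.3 ppm and 245, 392 and 260 at 1 ppm. Again only the 0.03 ppm group lay wholly below the controls. The log2 changes at 0.03 ppm were -0.82 for c6.1 and -0.44 for c6.2 (limma adjusted p = 0.998 for each), and c6.2 was the 1 member with an unadjusted p under 0.05 at that dose. These genes may share reads. For c7a, the other joining component measured here, the means were 384 ± 126 in the control and 317 ± 14.0 at 1 ppm (SD, n = 3).

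**Figure D3:**
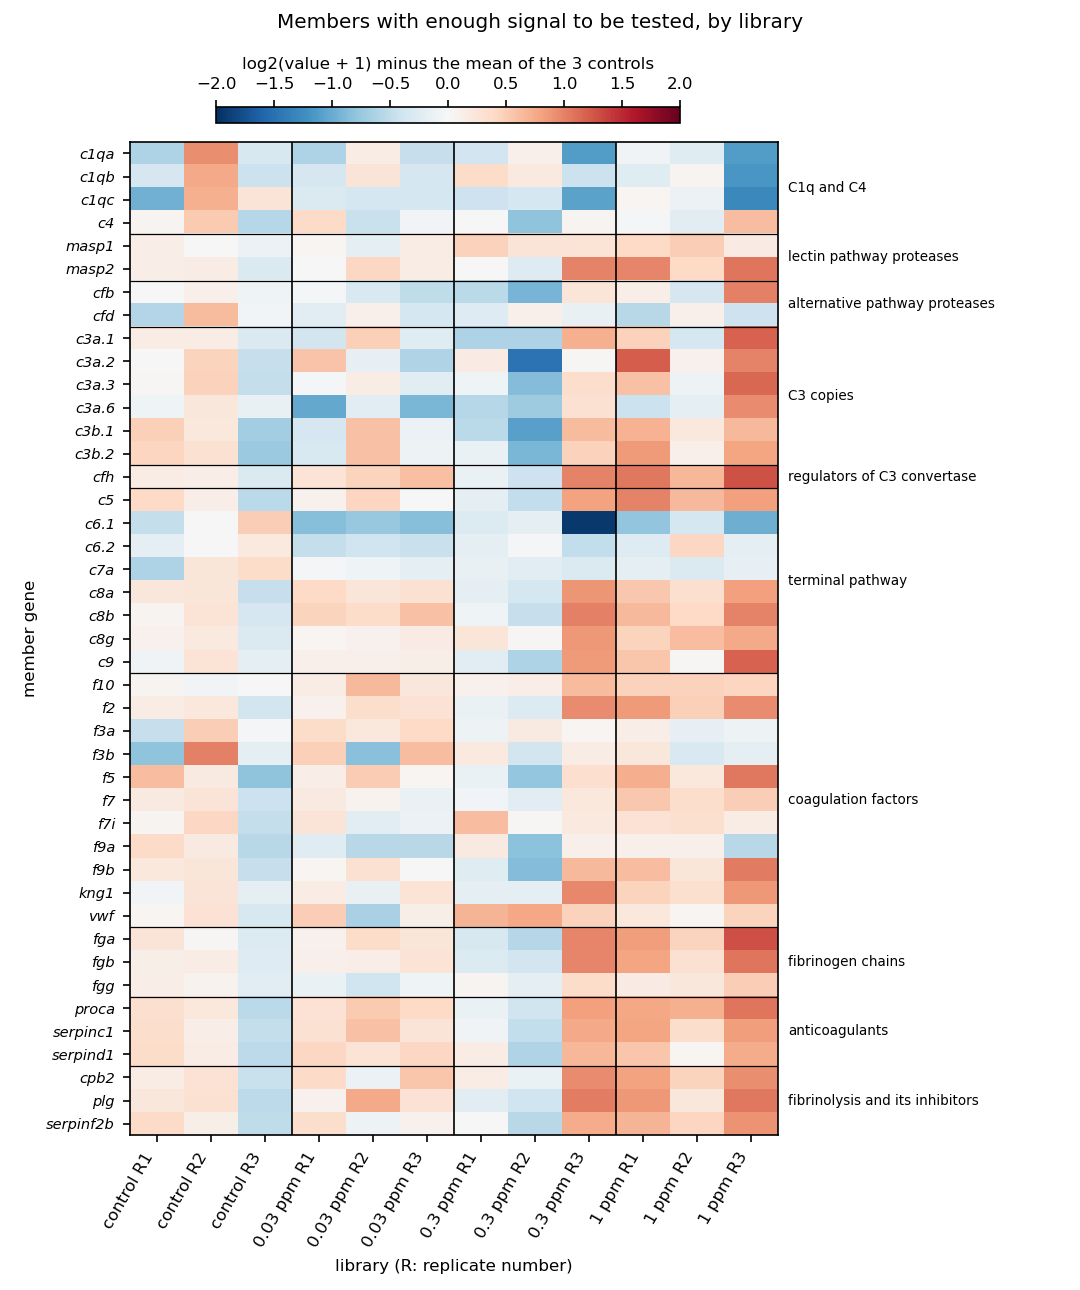
Level of each of the 43 tested members (rows, grouped by role) in each of the 12 libraries (columns), as log2(value + 1) minus the mean of the 3 controls. Red is above and blue below the control mean. The columns of 0.3 ppm replicate 3, 1 ppm replicate 1 and 1 ppm replicate 3 are mostly red and that of 0.3 ppm replicate 2 mostly blue.

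Among the coagulation factors, 8 of 11 tested were higher at 1 ppm, with a median log2 change of 0.45. Prothrombin, the precursor of thrombin, is encoded by f2 (ENSDARG00000036041), which had 1597, 1660 and 1118 normalised counts in the controls, 1522, 1836 and 1754 at 0.03 ppm, 1310, 1190 and 2753 at 0.3 ppm and 2581, 2007 and 2779 at 1 ppm. The 1 ppm libraries stood clear of the controls, and at 0.3 ppm replicate 3 alone did. Its mean at 1 ppm was 1.68 times the control mean, 2456 ± 401 against 1458 ± 296 (SD, n = 3), with a log2 change of 0.76 ± 0.28 (SE, limma adjusted p = 0.874).

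Factor X is the protease that activates prothrombin. The expressed f10 gene (ENSDARG00000088581), a neighbour of f7 and f7i in the GRCz12tu gene table, had 1161, 1084 and 1125 normalised counts in the controls, 1250, 1770 and 1316 at 0.03 ppm, 1190, 1227 and 1750 at 0.3 ppm and 1541, 1543 and 1518 at 1 ppm. It was the 1 member whose 9 dosed libraries were all above all controls, as in 0.363% of all genes, although this did not hold with libraries rescaled to equal totals. In 0 members were all dosed libraries below all controls, as in 0.963% of all genes. The control and 1 ppm groups were both tight, at 1123 ± 38.5 and 1534 ± 13.9 (SD, n = 3). Its log2 change at 1 ppm was 0.45 ± 0.17 (SE, limma adjusted p = 0.887), and within the replicate numbers it was 0.41, 0.51 and 0.43.

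Factor VII starts coagulation together with tissue factor, and f7 (ENSDARG00000034862) averaged 277 ± 67.0 in the control and 374 ± 24.7 at 1 ppm (SD, n = 3), with all 1 ppm libraries above all controls except with equal totals. The tissue factor genes f3a and f3b had log2 changes of -0.04 and -0.09. In f3b the controls alone spanned 94 to 331, wider than any dosed group. The cofactor gene f5 had a log2 change of 0.67, the factor IX genes f9b and f9a 0.64 and -0.12, and the kininogen gene kng1 0.54, the last with all 1 ppm libraries above all controls. The factor VII relative f7i had a log2 change of 0.25.

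Von Willebrand factor tethers thrombocytes to vessel walls, and vwf (ENSDARG00000077231) was low in all groups. It had 36, 43 and 28 normalised counts in the controls, 50, 22 and 38 at 0.03 ppm, 57, 61 and 49 at 0.3 ppm and 41, 36 and 48 at 1 ppm. The 0.3 ppm libraries were above all controls, as in 3.47% of all genes, and the other doses overlapped them. The log2 change at 0.3 ppm was 0.64 (limma adjusted p = 1.00) and at 1 ppm 0.23. Of 9 tested thrombocyte markers 5 were higher at 1 ppm, with a median of 0.02, and all 18 endothelial markers were higher, with a median of 0.21. The thrombocyte integrin itga2b had only 2 to 13 normalised counts in any library.

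Fibrinogen, the clot's building block, has an alpha, a beta and a gamma chain, encoded by fga, fgb and fgg. fga (ENSDARG00000020741) had 2516, 2151 and 1739 normalised counts in the controls, 2243, 2723 and 2492 at 0.03 ppm, 1686, 1419 and 4175 at 0.3 ppm and 3784, 2879 and 5142 at 1 ppm. fgb (ENSDARG00000008969), its close neighbour in the GRCz12tu gene table, had 2208, 2259 and 1699 in the controls, 2189, 2233 and 2474 at 0.03 ppm, 1684, 1563 and 4019 at 0.3 ppm and 3531, 2531 and 4290 at 1 ppm. In both genes the 1 ppm libraries were above all controls, and at 0.3 ppm replicates 1 and 2 lay below all controls and replicate 3 far above them.

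fgg (ENSDARG00000037281) had 4368, 4180 and 3450 normalised counts in the controls, 3629, 3027 and 3744 at 0.03 ppm, 4150, 3476 and 5160 at 0.3 ppm and 4471, 4638 and 5579 at 1 ppm. Its 1 ppm libraries were also above all controls, but by less. The log2 changes at 1 ppm were 0.86 ± 0.34 for fga (SE, limma adjusted p = 0.944), 0.73 ± 0.31 for fgb (adjusted p = 1.00) and 0.29 ± 0.17 for fgg (adjusted p = 1.00). With libraries rescaled to equal totals, no fibrinogen chain had all 1 ppm libraries above all controls.

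Per 100 fgg counts there were 53.2 ± 3.89 fga counts in the controls, 72.8 ± 15.1 at 0.03 ppm, 54.1 ± 23.2 at 0.3 ppm and 79.6 ± 15.7 at 1 ppm (SD, n = 3). The same ratio for fgb was 51.3 ± 2.48, 66.7 ± 6.75, 54.5 ± 20.4 and 70.1 ± 13.5. For both chains the ratios of all 0.03 and 1 ppm libraries exceeded those of all controls. For fgb the margin at 1 ppm was narrow, with a lowest 1 ppm ratio of 54.6 and a highest control ratio of 54.0. Both ratios are taken to fgg, so they are not separate observations. At 0.3 ppm replicates 1 and 2 lay below all controls and replicate 3 above them. The share of such separations among other ratios was not computed. These within-library ratios do not depend on the scaling and were chosen after the values were seen.

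All 3 tested anticoagulant genes were higher at 1 ppm, with a median log2 change of 0.66. Protein C cuts off thrombin formation, and proca (ENSDARG00000038258) had 252, 233 and 138 normalised counts in the controls, 246, 289 and 264 at 0.03 ppm, 184, 152 and 356 at 0.3 ppm and 344, 331 and 423 at 1 ppm. Its 1 ppm libraries were all above the controls, with a log2 change of 0.85 ± 0.30 (SE, limma adjusted p = 0.852). Antithrombin, the main inhibitor of thrombin and factor X, is encoded by serpinc1 (ENSDARG00000042684), with 1339, 1145 and 750 in the controls, 1290, 1578 and 1249 at 0.03 ppm, 998, 744 and 1780 at 0.3 ppm and 1808, 1340 and 1862 at 1 ppm. The lowest 1 ppm library exceeded the highest control by 1 count only, and did not exceed it under either rescaling. The serpinc1 log2 change was 0.66 ± 0.29 (SE, limma adjusted p = 1.00), and that of serpind1, heparin cofactor, was 0.44.

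The fibrinolysis genes were higher at 1 ppm as well, all 3 of them, with a median log2 change of 0.72. Plasminogen is the precursor of the enzyme that dissolves clots, and plg (ENSDARG00000023111) had 1336, 1411 and 796 normalised counts in the controls, 1215, 1938 and 1401 at 0.03 ppm, 988, 870 and 2329 at 0.3 ppm and 2086, 1339 and 2379 at 1 ppm. The 1 ppm replicate 2 library lay among the controls and the other 2 above them. The plasmin inhibitor gene serpinf2b averaged 968 ± 286 in the control and 1505 ± 241 at 1 ppm (SD, n = 3), and cpb2, whose product protects fibrin from plasmin, 206 ± 51.8 and 337 ± 55.6. In both genes the 1 ppm libraries were above all controls, for serpinf2b except with equal totals.

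Divided by system, 16 of 23 tested complement members were higher at 1 ppm, with a median log2 change of 0.44 and 7 of them with all 1 ppm libraries above all controls, a pattern seen in 4.41% of all genes tested. Of the 20 coagulation members 17 were higher, with a median of 0.59 and 11 so separated. The difference between both systems was not tested.

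At the lower doses the members showed no common direction. At 0.03 ppm 25 of 43 were higher, where 46.6% of all genes were, and 18 lower, with a median log2 change of 0.09. At 0.3 ppm 24 were higher, where 48.8% of all genes were, and 19 lower, with a median of 0.04. By system, 16 of 20 tested coagulation members were higher at 0.03 ppm and 15 of 20 at 0.3 ppm. Of 23 tested complement members 9 were higher at each of these doses. This difference between the systems was not tested. With libraries rescaled to equal totals, 6 members changed from lower to higher at 0.03 ppm and 1 from higher to lower at 0.3 ppm. No member was called by limma at either dose, against 0.0582% and 0.130% of all genes. At an unadjusted p under 0.05 there were 0 higher and 1 lower member at 0.03 ppm (1.56% and 1.93% of all genes), and 0 and 0 at 0.3 ppm (0.999% and 1.82% of all genes). At 0.03 ppm all libraries exceeded all controls in c8b, f10 and cfh, 3 members where 3.54% of all genes did, and lay below all controls in c3a.6, c6.1 and c6.2, where 3.86% of all genes did. At 0.3 ppm all libraries exceeded all controls in f10, vwf and masp1 (3.47% of all genes) and lay below them in 0 members (3.62% of all genes). The doses share the control libraries, so their values are given side by side and not compared. In the slope over the order of the groups 34 of 43 members were positive, where 49.3% of all genes were. None was called by limma, against 0.0134% of all genes, and at an unadjusted p under 0.05 there were 10 positive and 0 negative members (2.54% and 3.02% of all genes).

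The 0.3 ppm group was internally divided. Replicate 3 was the highest library of the group in 29 of 43 members, against 36.4% of all genes, and replicate 2 the lowest in 32, against 31.8%. Within the replicate numbers the median member differed from its control by -0.14, -0.61 and 1.01 on the log2 scale. In the control group replicate 3 was the lowest library in 34 of 43 members, against 24.8% of all genes, and in 32 of 39 hepatocyte markers. At 1 ppm replicate 2 was the lowest in 30 members, against 39.0% of all genes, and replicate 3 the highest in 26, against 30.7%. The same order was seen in the liver marker fabp10a, a fatty acid binding protein of hepatocytes, for the control and 0.3 ppm groups: it had 9689, 9769 and 4268 in the controls, 9012, 6674 and 12418 at 0.3 ppm and 10938, 13627 and 14686 at 1 ppm.

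Summed, the members other than cfd amounted to 0.110%, 0.0988% and 0.0831% of all normalised counts in the controls, 0.102%, 0.104% and 0.118% at 0.03 ppm, 0.0864%, 0.0691% and 0.156% at 0.3 ppm and 0.163%, 0.0994% and 0.187% at 1 ppm. At 1 ppm replicates 1 and 3 were above all controls and replicate 2 was among them. With cfd included, the sums were 0.123%, 0.127% and 0.104% in the controls and 0.178%, 0.118% and 0.203% at 1 ppm, where replicate 2 was again among the controls. Hepatocyte markers took 1.58%, 1.64% and 1.26% in the controls, 1.38%, 1.58% and 1.87% at 0.03 ppm, 1.60%, 1.59% and 2.30% at 0.3 ppm and 2.17%, 1.85% and 2.21% at 1 ppm. Per 100 hepatocyte marker counts, the members other than cfd had 6.94, 6.03 and 6.60 in the controls and 7.50, 5.38 and 8.45 at 1 ppm. On that measure the 1 ppm libraries lay on both sides of the controls. The 0.3 ppm libraries had 5.39, 4.34 and 6.80, of which replicates 1 and 2 were below all controls and replicate 3 was among them.

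**Figure D4:**
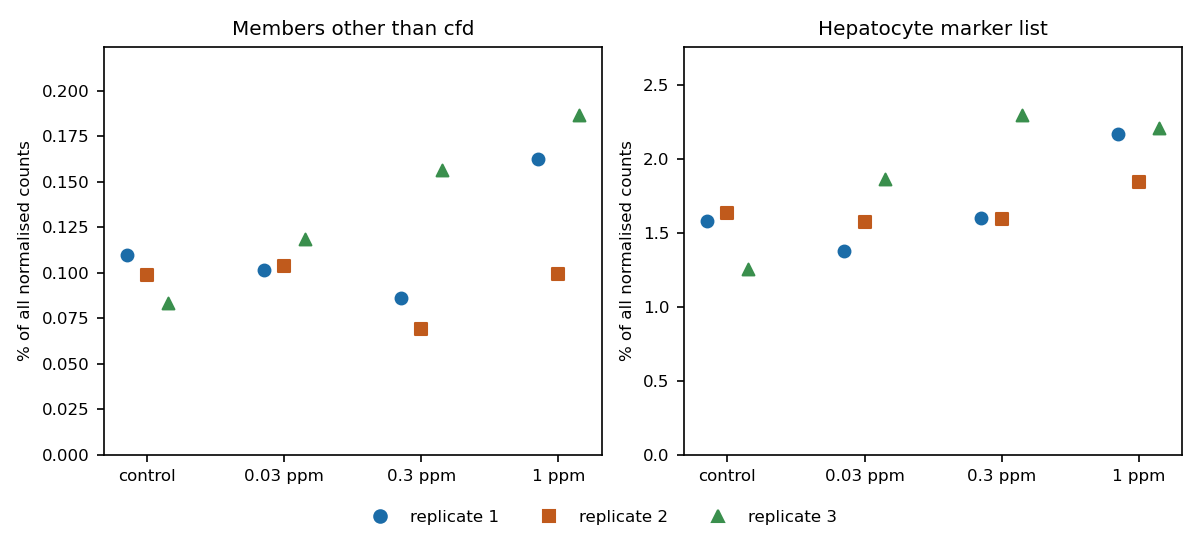
Share of all normalised counts (%, vertical axes from 0) taken by the members other than cfd (left) and by the hepatocyte marker list (right) in each library, by group and replicate number. At 0.3 ppm replicate 3 is highest in both panels, and at 1 ppm the hepatocyte share lies above all controls while the member share of replicate 2, at 0.0994%, does not.

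Other genes of both systems had medians nearer 0 at 1 ppm. Of 28 further complement genes tested, 17 were higher at 1 ppm and 11 lower, with a median log2 change of 0.07. By limma 0 were called, against 0.139% of all genes. At an unadjusted limma p under 0.05, 7 were higher and 1 lower (2.14% and 2.60% of all genes). The 7 were C2, crp, cfhl1, cfhl2, cfhl4, vtna and vtnb. Log2 changes of the factor H-like genes were 1.01 for cfhl1, 1.12 for cfhl2 and 0.66 for cfhl4, against -0.20 for cfhl3 and -0.08 for cfhl5. Those of vtna and vtnb were 0.83 and 0.73. In cfhl4, vtna and vtnb every 1 ppm library lay above every control, as in 4.41% of all genes. C2 (ENSDARG00000019772) is named like the protease that partners C4 in the C3 convertase, although the reference table of gene names does not call it C2. It had 86, 111 and 57 normalised counts in the controls, 159, 120 and 137 at 0.03 ppm, 98, 58 and 165 at 0.3 ppm and 183, 213 and 226 at 1 ppm. Its 0.03 and 1 ppm libraries were all above the controls, with a log2 change at 1 ppm of 1.33 ± 0.33 (SE, limma adjusted p = 0.361). The C1S gene ENSDARG00000100599, a protease of the C1 complex, had 15, 28 and 18 in the controls and 6, 8 and 11 at 1 ppm, with a log2 change of -1.18 (adjusted p = 0.649 in limma). It had 14, 11 and 10 at 0.03 ppm and 14, 10 and 11 at 0.3 ppm. All of its dosed libraries were thus below all controls, as in 0.963% of all genes. The other C1S gene, ENSDARG00000102094, averaged 37.3 ± 13.1 in the control and 38.0 ± 10.0 at 1 ppm (SD, n = 3), a log2 change of 0.05.

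Of 30 further coagulation genes tested, 21 were higher at 1 ppm, with a median of 0.12. By limma 0 were called, against 0.139% of all genes. At an unadjusted limma p under 0.05, 0 were higher and 0 lower (2.14% and 2.60% of all genes). lman1, a cargo receptor that carries coagulation factors V and VIII out of the endoplasmic reticulum, had 473, 380 and 479 normalised counts in the controls and 620, 494 and 745 at 1 ppm. All of its 1 ppm libraries were above all controls, as in 3 of the 30 genes and in 4.41% of all genes. The protease receptor gene f2rl1.1 averaged 101 ± 29.0 in the control and 75.3 ± 13.8 at 1 ppm (SD, n = 3).

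Acute phase and inflammatory signal genes, many of which accompany complement in inflammation, did not as a list share the members' direction at 1 ppm. Of 23 tested, 10 were higher and 13 lower, with a median of -0.10. At an unadjusted limma p under 0.05, 1 was higher and 4 lower (2.14% and 2.60% of all genes). The gene crp, named like C-reactive protein, was higher, at 2199 ± 177 normalised counts against 1460 ± 588 in the control (SD, n = 3). Its log2 change was 0.67 (limma adjusted p = 0.887), with overlapping groups. irg1l, an immune-response gene of inflamed tissue, had 513, 583 and 1380 normalised counts in the controls and 99, 260 and 163 at 1 ppm, with a log2 change of -2.20 (limma adjusted p = 0.0645). The tumour necrosis factor gene tnfb had 55, 95 and 83 in the controls and 22, 46 and 38 at 1 ppm (log2 change -1.14, adjusted p = 0.642 in limma). In both genes every 1 ppm library was below every control, as in 4.33% of all genes. Low values in this list were not confined to 1 ppm. Its lowest log2 change and smallest limma adjusted p were -2.21 and 0.068 at 0.3 ppm, and -1.66 and 0.488 at 0.03 ppm.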

How the data were processed

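Each per-sample file holds 1 value per gene, named normalised counts by the authors and rounded to whole numbers. The deposited unit is treated as a score, since no library shares a fixed total with another and raw counts were not analysed here. Per the submitters' processing notes, the tools were DESeq2 1.10.1, RSEM 1.2.28, STAR 2.5.1b and CASAVA, with genome build GRCz10. Their settings are not given in the sources used here. The depth in reads is not given here. A count model planned for raw counts was therefore not used.

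A limma model (version 3.58.1, in R 4.3.3) of log2(value + 1) gave each group its own coefficient and moderated the variances along a mean-variance trend. It took in all 12 libraries and the 22320 genes that reached 10 in 3 or more of them. Tests were two-sided, with Benjamini-Hochberg adjustment over all genes tested and a threshold of 0.05. Trends used the order of the groups. Scripts were tested on simulated data. The smallest exact two-sided p of 3 against 3 libraries is 0.1.

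The members, lists and tests were chosen with earlier results of these data known. Members given in every library are the 8 with the smallest p at 1 ppm and the 4 with the smallest p in each other comparison. They also include the highest of each role class, the fibrinogen chains and cfb, which fell outside these rules. Other lists are represented by called genes and the 2 of smallest p at 1 ppm. The genes crp, vtna, vtnb, C1S (ENSDARG00000102094) and those named cfhl were added after their values were seen. Libraries of the same replicate number deviated together, with correlations of 0.145 to 0.287 for 0.3 ppm and control and 0.119 to 0.478 for 1 ppm and control, so a replicate term was also fitted. For 0.03 ppm and control the lowest was 0.0776. Between libraries of different numbers the highest correlation was 0.226 for 0.03 ppm, -0.0106 for 0.3 ppm and 0.204 for 1 ppm. Only at 0.3 ppm were all same-number correlations above it. Alternatives covered scaling, filter, pseudocount, weights, the groups fitted and left-out libraries. Gene order comes from the GRCz12tu table, without coordinates, and figures were drawn with Python 3.11.15 and matplotlib 3.10.9.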

Additional observations from a re-analysis of the deposited data

How the results depend on the processing

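No member was called in any comparison under the scaling, filter, pseudocount, variance and replicate-term alternatives or with any library left out. With a weight per library 21 members were called at 1 ppm, 20 higher (limma adjusted p = 0.00849 to 0.0496) and c6.1 lower (adjusted p = 0.0473), beside 3.44% of all genes tested. That fit gave control replicates 1, 2 and 3 weights of 0.355, 0.778 and 5.74, so its control values came mostly from replicate 3. Control replicate 3 was the lowest control library in 34 of the 43 tested members. In this fit the log2 change of cfh at 1 ppm was 1.32, against 1.00 without weights. These calls therefore rest largely on 1 control library. Why the weights differed was not tested.

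Counts of all genes called moved more. At 0.03 ppm 13 genes were called, against 6 with equal library totals, 3 with only the groups compared, 2 with no mean-variance trend, 57 with library weights and 20 with the replicate term as a block. At 0.3 ppm the count of 29 became 18, 10, 12 and 95 under the first 4 of these. At 1 ppm the count of 31 became 3 with only the groups compared, 768 with weights and 58 with the block. In the slope 3 genes became 0 with a pseudocount of 10, 0 with no mean-variance trend, 56 with weights and 9 with the block. The block changed no member's call.

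Leaving out libraries or replicate numbers gave 0 to 11, 0 to 31 and 0 to 47 called genes at the 3 doses in turn and 0 to 30 in the slope. Member medians ran from -0.12 to 0.22, from -0.44 to 0.35 and from 0.17 to 0.78, and from 0.02 to 0.25 for the slope. At 1 ppm 30 to 36 members were higher and 18 to 31 had every library above every control, beside 6.35% to 16.8% of all genes tested. Leaving libraries out cannot lower this second count, so its range does not show how stable the count is. With equal totals, an alternative chosen after seeing the data, it was 11 members, beside 3.00% of all genes. At 0.3 ppm, leaving out libraries gave log2 changes of c6.1 from -1.30 to 0.018 and of c8g from -0.0097 to 0.66, both reversed only without replicate 3. Class medians changed sign with equal totals for the alternative pathway at 1 ppm and for the C3 copies and all complement members at 0.03 ppm. With 3 libraries a group and values already normalised, counting error cannot be given.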

Other observations

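Several genes of the same systems carry upper-case names in the files and so fell outside the naming rule. They were looked at after the members' values were seen. In 3 of the 6 tested, every 1 ppm library lay above every control, as in 4.41% of all genes. PROC (ENSDARG00000093079), named like human protein C, had 40, 53 and 16 normalised counts in control replicates 1, 2 and 3 and 67, 64 and 95 at 1 ppm, every library above every control, with a log2 change of 1.17 (limma adjusted p = 0.856). C4A (ENSDARG00000038424), which the reference table calls c4b, had 152, 226 and 214 in the controls and 197, 186 and 341 at 1 ppm, with overlapping groups. C7 (ENSDARG00000057121), called c7b in that table, had 317 in 0.3 ppm replicate 2 and 60 to 125 in the other libraries. C3 (ENSDARG00000093198), called c3a.4, had 5 to 17 in any library.

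A further gene named F7 (ENSDARG00000099192) alternated between presence and near absence within groups. It had 140, 93 and 0 normalised counts in the controls, 2, 30 and 1 at 0.03 ppm, 77, 71 and 108 at 0.3 ppm and 96, 101 and 120 at 1 ppm. All 0.3 and 1 ppm libraries were at 71 or more, while control replicate 3 was listed at 0. With a log2 change of 2.17 ± 1.49 (SE) at 1 ppm its limma adjusted p was 1.00. The other gene named F7 (ENSDARG00000100782) had 104 to 152 in the controls and 197 to 231 at 1 ppm, every library above every control, as in 4.41% of all genes.

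Outside both systems, the macrophage gene mpeg1.2, of the same perforin-like family as mpeg1.1, fell at 1 ppm from 1280 ± 424 to 363 ± 86.2 normalised counts (SD, n = 3, limma adjusted p = 0.0388). Every 1 ppm library was below every control, as in 4.33% of all genes, whereas mpeg1.1 overlapped between the groups. Low values in the macrophage list were not confined to 1 ppm. Its lowest log2 change and smallest limma adjusted p were -1.70 and 0.0576 at 0.3 ppm, and -1.51 and 0.282 at 0.03 ppm. The keratin gene krt96, from the epidermal list, fell at 1 ppm from 1581 ± 257 to 260 ± 59.6 (adjusted p = 0.00512 in limma). It was also called lower at 0.3 ppm (limma adjusted p = 0.00522) and in the slope over the groups (limma adjusted p = 0.0399).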
